A study of Mus musculus with 2 samples.

Results

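Mir214, Mir140, Mir199b, Mir199a-2 and Mir199a-1 are 5 of the 1973 miRNA genes counted in embryonic mouse neural tube. They were matched by gene symbol, a rule that uses no measured value, and all 5 had a row in both libraries. The choice of these 5 was made with earlier results of these data known. Small RNA of strain B6NCrl embryos at 12.5 days was sequenced in 1 group of 2 biological replicates, whose labels name no mutation, transgene or treatment. Replicate 1 pooled neural tubes of 120 embryos and replicate 2 those of 88, males and females together. The labels describe no sorting of cells, so a pool can hold adjoining tissue, and fewer cells of a type cannot be told apart from less RNA per cell.

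A miRNA gene is transcribed as a longer RNA that is cut to a hairpin and then to short mature strands from its 5p and 3p arms. A mature strand in the Argonaute complex pairs with target mRNAs mainly through its seed, bases 2 to 8, and lowers their output. The Mir199 genes and Mir214 are known from mesenchyme, the loose connective tissue of the embryo that also forms the meninges around the neural tube. In mouse, Mir199a-2 and Mir214 are made from the noncoding RNA Dnm3os, whose loss impairs growth of the skeleton. Mir140 is best known from cartilage, where it is made together with its host gene Wwp2, which encodes a ubiquitin ligase.

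The mature sequences listed for these genes by RefSeq (GRCm38.p6) follow, since they show which genes can be told apart by their reads. The table holds 8 entries for the 5 genes, which come to 5 different sequences, each with a seed of its own. Sequences run 5′ to 3′ and capitals mark the seed.
miR-214-3p: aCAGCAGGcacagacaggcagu
miR-214-5p: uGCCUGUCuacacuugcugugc
miR-140-3p: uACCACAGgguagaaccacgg
miR-199a-3p and miR-199b-3p: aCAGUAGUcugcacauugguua
miR-199a-5p: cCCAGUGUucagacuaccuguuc

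The 3p strand is the same 22 bases in Mir199b, Mir199a-2 and Mir199a-1, and miR-199a-5p is the same 23 bases in Mir199a-2 and Mir199a-1. In the Mir199b hairpin the stretch opposite miR-199a-5p, at chr2:32318485-32318507 on the plus strand of mm10, differs from it by 1 base, C10U, counted from the 5′ end of miR-199a-5p. That stretch is shown next with the differing base in capitals.
Mir199b stretch: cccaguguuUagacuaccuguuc

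The whole hairpins of the Mir199 genes are shown for where they coincide. Capitals mark bases inside a window of 20 that also occurs in another hairpin of the table.
Mir199b: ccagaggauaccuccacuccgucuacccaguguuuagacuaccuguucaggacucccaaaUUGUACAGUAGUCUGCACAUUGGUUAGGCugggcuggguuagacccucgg
Mir199a-2: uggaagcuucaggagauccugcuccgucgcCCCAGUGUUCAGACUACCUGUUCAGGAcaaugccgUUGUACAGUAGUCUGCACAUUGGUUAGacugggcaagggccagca
Mir199a-1: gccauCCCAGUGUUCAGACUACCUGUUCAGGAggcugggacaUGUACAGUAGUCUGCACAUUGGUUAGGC

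Shared windows covered 26.4% of the 110 bases of the Mir199b hairpin, 49.1% of the 110 bases of Mir199a-2 and 78.6% of the 70 bases of Mir199a-1. The only partners were the Mir199 genes themselves. Mir214 and Mir140 shared no window with any listed hairpin. Of 869 counted genes with a hairpin in the table, 114 (13.1%) shared such a window, among them 3 of the 5 members. No M21 transcript held one of the mature sequences printed above apart from the Mir199 and Mir214 genes with Dnm3os, and Mir140 with Wwp2.

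Between Mir199a-1 and Mir199a-2 the identity around miR-199a-5p ends at its 5′ end, with 0 further bases alike, and runs 4 bases past its 3′ end. Around the 3p strand, Mir199a-2 and Mir199b are alike over 27 bases, 4 before the strand and 1 after it. Mir199a-1 and Mir199a-2 are alike over 26 bases there. Mir199a-1 and Mir199b are alike over at least 28, up to the last base of the Mir199a-1 hairpin. A read that lies inside such a run matches more than 1 gene. The deposited files keep reads that map to several places apart from every gene, so the counts of the Mir199 genes lack them.

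**Figure D1:**
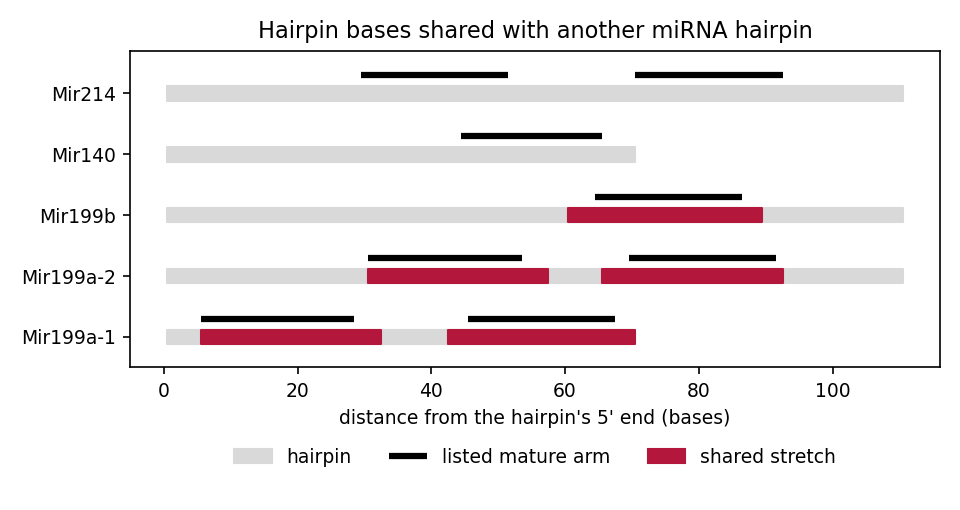
Hairpins of the 5 genes drawn from their 5′ end in bases (horizontal axis), with stretches shared with another hairpin in red and RefSeq's listed mature arms as black lines. The red stretches lie under the 3p arm of all 3 Mir199 genes and under the 5p arm of Mir199a-2 and Mir199a-1, and none lies on Mir214 or Mir140.

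By GENCODE M21 on mm10, 4 members lie opposite an intron of a dynamin gene. Mir199a-2 (chr1:162217814-162217923) and Mir214 (chr1:162223368-162223477) stand on the plus strand in exons of Dnm3os, within introns of Dnm3 on the other strand. Mir199a-2 begins 191 bases into Dnm3os and Mir214 begins 5745 bases into it, with 5444 bases between the hairpins. Of the Dnm3os transcripts that span each gene, 2 of 3 hold Mir199a-2 in an exon and 2 of 2 hold Mir214 in one. Mir199b (chr2:32318460-32318569, plus strand) lies opposite an intron of Dnm1. Mir199a-1 (chr9:21496495-21496564, minus strand) lies opposite an intron of Dnm2. Mir140 (chr8:107551244-107551313) lies within Wwp2 on the same strand, in an intron of 3 of the 4 transcripts that span it and in an exon of the other, a retained-intron transcript.

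Own-strand reads on miRNA genes numbered 4802411 in replicate 1 and 4422853 in replicate 2. Reads that map to several places numbered 3448592 and 2698981, or 27.0% and 28.6% of all reads. Levels are given as reads per 1000000 gene reads (CPM) and were not divided by hairpin length, since each read stands for a short RNA (size range under 30 in the labels) and not for a fragment of a long transcript. A gene counted as detected when each library held 10 or more of its reads. Of the 1973 counted genes 371 met this, the background to every count of detected genes below. With 1 group there was no condition to test, and no exact test over 2 libraries can give a p below 0.5.

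The 5 genes together held 1.15% of gene reads in replicate 1 (exact 95% interval 1.14 to 1.16) and 0.997% in replicate 2 (0.988 to 1.01). This came almost wholly from Mir214 and Mir140, which took 97.3% ± 0.279 of the members' reads (SD, n = 2). The intervals cover counting error only and not the variation between libraries. PCR copies were not marked by molecular identifiers, so reads may not be independent and the intervals may be too narrow. Of the 5 members 4 were detected, all but Mir199a-1, against 371 of the 1973 counted genes.

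Mir214, whose mature strand is known to repress Ezh2 in mouse muscle cells, had 29925 reads in replicate 1 and 21387 in replicate 2. That is 6231 and 4836 CPM, with exact 95% intervals of 6161 to 6302 and 4771 to 4901. It was the member with the highest mean, 5533 ± 986.9 CPM (SD, n = 2), and took rank 32 of all 1973 genes by mean CPM.

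Mir140, the cartilage miRNA, had 23769 reads in replicate 1 and 21453 in replicate 2, which is 4949 and 4850 CPM. The libraries lay close together, with a mean of 4900 ± 69.9 CPM and rank 36. Mir214 exceeded Mir140 by 1.26 times in replicate 1 and came to 0.997 times its reads in replicate 2. The mean ratio was 1.13 ± 0.185 and its distance from 1 was within that SD, so the order of these neighbours was not settled.

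Mir199b had 1150 reads in replicate 1 and 992 in replicate 2, which is 239.5 and 224.3 CPM. Its mean of 231.9 ± 10.7 CPM put it at rank 157, above the median of detected genes, 114.7 CPM. Mir140 had 21.1 ± 0.677 times its reads, a gap far above the spread between libraries. Mir199b lacks the reads shared with the other Mir199 genes, so this is a gap in uniquely assigned reads.

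Mir199a-2 had 196 reads in replicate 1 and 249 in replicate 2, which is 40.8 and 56.3 CPM. Its mean of 48.6 ± 11.0 CPM put it at rank 235, below the median of detected genes. Mir199b had 5.87 times its reads in replicate 1 and 3.98 times in replicate 2.

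Mir199a-1 had 8 reads in replicate 1 and 18 in replicate 2, which is 1.67 CPM (0.719 to 3.28) and 4.07 CPM (2.41 to 6.43). It missed detection in replicate 1 alone. Mir199a-2 had 24.5 times its reads in replicate 1 and 13.8 times in replicate 2. Their listed mature strands are the same, so a read that lies inside one matches both genes and is missing from both counts. Of windows of 20 bases found in no other hairpin, Mir199a-2 has 75 and Mir199a-1 has 34. The part of this in the ratio was not tested.

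Read together, the 3 Mir199 genes had 1354 reads in replicate 1 and 1259 in replicate 2, or 283.3 ± 1.92 CPM. Mir199b, the one with a 5p stretch of its own, held 84.9% of them in replicate 1 (exact 95% interval 82.9 to 86.8) and 78.8% in replicate 2 (76.4 to 81.0). The order Mir199b, Mir199a-2, Mir199a-1 was the same in both libraries. It is an order of uniquely assigned reads. Whether the authors' alignment allowed mismatches is not known, and a mismatched read could be assigned to Mir199b or to a Mir199a gene across their 1-base difference in the 5p stretch. How the reads that map to several places divide over these genes was not analysed here, so these values are no measure of the amount of miR-199.

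Mir214 and Mir199a-2, both inside Dnm3os, differed by 152.7 times in replicate 1 and by 85.9 times in replicate 2, a mean of 119.3 ± 47.2. The spread here is large beside the mean, and its counting intervals did not overlap (132.7 to 176.6 in replicate 1 and 75.8 to 97.7 in replicate 2). Mir199a-2 lacks the reads shared with the other Mir199 genes, and the capture efficiency of different sequences is unknown.

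**Figure D2:**
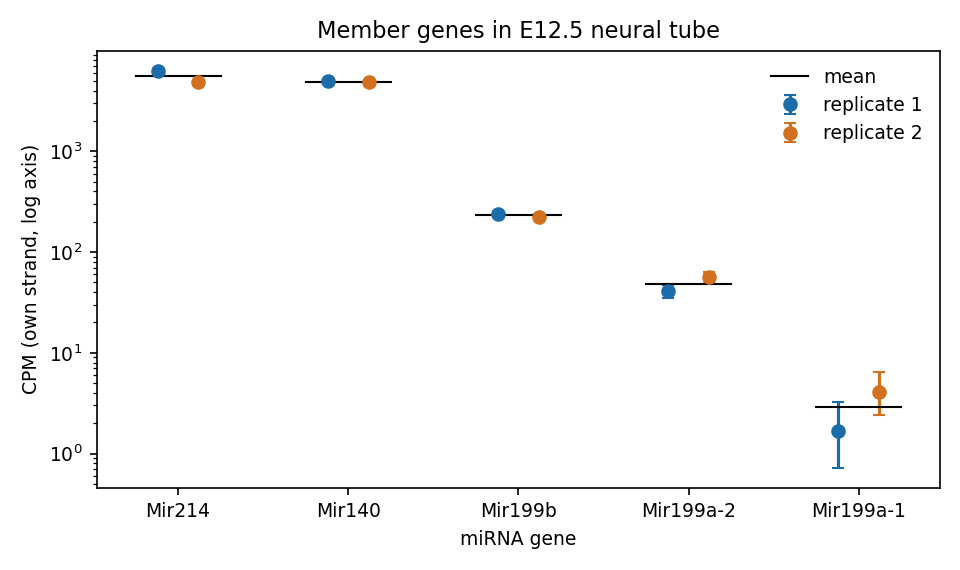
CPM of the 5 genes on a log axis in replicate 1 and replicate 2 (points, with exact 95% intervals of counting error) and their mean (line). Mir214 and Mir140 average 5533 and 4900 CPM, the sequence-sharing Mir199 genes lie lower, and Mir199a-1 averages 2.87 CPM.

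Reads on the strand opposite the gene numbered 1 for Mir214 in each library and 1 for Mir140 in replicate 1. The other members had 0. Opposite-strand reads made up 1.72% of all reads on miRNA genes in replicate 1 and 1.48% in replicate 2.

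Of other genes that share a seed with a member strand printed above, the search found Mir761 and Mir497b. The strands miR-140-5p and miR-199b-5p were not analysed here. Mir761 has the seed of miR-214-3p and was without a read, so that at most 0.625 CPM in replicate 1 and 0.678 CPM in replicate 2 (3 reads) would have gone unseen. Mir497b has the seed of miR-140-3p and had 3 reads in replicate 1 and 1 in replicate 2. Their sequences are given to set beside those of the members.
miR-761: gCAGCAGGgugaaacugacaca
miR-497b: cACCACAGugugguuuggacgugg

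None of the 4 detected members was over 1.5-fold apart between the libraries, while 48 of the 371 detected genes (12.9%) were. With 4 members this count is not set apart from that background. The median absolute log2 ratio of all detected genes was 0.24.

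Mir214 was 1.29-fold higher in replicate 1, a log2 ratio of CPM of 0.37 with an exact 95% interval of 0.34 to 0.39. Of the detected genes, 27.5% had a larger absolute ratio. Mir140 (log2 ratio 0.03, 0.00 to 0.06) was among the most even genes, with 91.9% of detected genes farther apart. Mir199b was even as well (0.09, -0.03 to 0.22), with 79.2% farther apart.

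Mir199a-2 lay on the other side, with a log2 ratio of -0.46 (-0.74 to -0.19), or 1.38-fold higher in replicate 2. Of the detected genes, 20.2% were farther apart. Mir214 and Mir199a-2, both inside Dnm3os, thus stood on opposite sides of 0. Their intervals did not overlap, but these cover counting error only and not the variation between libraries. Mir199a-2 also lacks the reads shared with the other Mir199 genes. Mir199a-1, not detected by the rule, had a log2 ratio of -1.29 with a wide interval of -2.70 to -0.02.

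**Figure D3:**
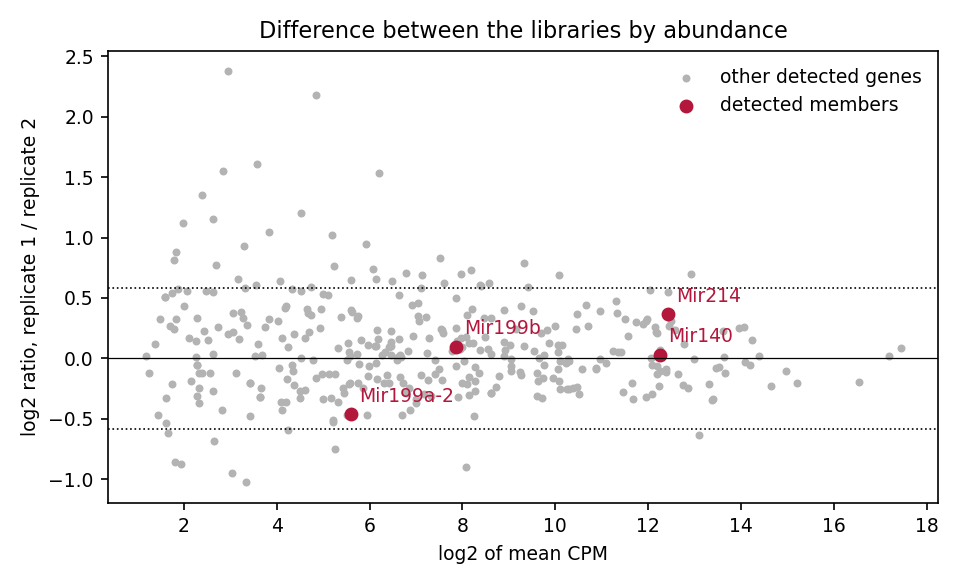
Log2 ratio of CPM, replicate 1 over replicate 2, against log2 of the mean CPM for the 371 detected genes. The 4 detected members (red) lie inside the dotted lines, which mark 1.5-fold, with Mir214 above 0 and Mir199a-2 below it.

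The genes closest to each member in level were found by the distance of log2(CPM + 1) over the 2 libraries, which describes 2 points and says nothing of shared control. Those nearest to Mir214 were Mir342 (5570 ± 731.1 CPM, distance 0.07), Mir744 (0.10) and Mir219a-2 (0.13). Those nearest to Mir140 were Mir151 (4901 ± 165.0 CPM, distance 0.03), Mir369 (0.10) and the imprinted gene Mir127 (0.11). Mir148a (236.1 ± 17.1 CPM, distance 0.05), Mir7-1 (0.11) and Mir185 (0.11) were nearest to Mir199b. Mir200a (45.9 ± 10.5 CPM, distance 0.11), Mir668 (0.18) and Mir204 (0.18) were nearest to Mir199a-2. Among these neighbours, Mir219a-2 is a neural and Mir200a an epithelial gene by the lists that follow.

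Set against a list of other genes chosen for mesenchyme, vessel walls and cartilage, Mir214 and Mir140 stood at the upper end. Whether the listed genes are limited to these tissues was not tested. The members summed to 11463 CPM in replicate 1 and 9971 in replicate 2, and the 11 counted genes of that list to 14047 and 13998 CPM. Of these 11, 10 were detected, 1 of those (Mir483) was over 1.5-fold apart between the libraries, and Mir145b had 0 reads. The median log2 ratio was 0.06 over the 4 detected members, 0.01 over the 10 genes and 0.04 over all detected genes.

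The leading genes of that list were Mir143, which marks smooth muscle, at 5340 ± 232.8 CPM, Mir21a at 4328 ± 622.5, Mir22 at 2565 ± 469.6 and the Igf2 intron gene Mir483 at 1079 ± 357.9 (SD, n = 2). Mir214 and Mir143 differed by less than the SD of Mir214. Mir455, which cartilage also makes, had 389.6 ± 63.3 CPM, below Mir140 in both libraries.

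Of genes of neural cells, 12 of 14 counted were detected, against 371 of all 1973 counted genes. The epithelial, leukocyte and erythroid lists below had all their counted genes detected, so detection is no check of the labelled tissue. The neural genes summed to 11607 CPM in replicate 1 and 9954 in replicate 2. Mir219a-2 (5544 ± 1479 CPM), Mir137 (2809 ± 379.0), Mir153 (807.1 ± 1.17) and Mir219a-1 (395.2 ± 7.05) led them. The sum of the members, 10717 ± 1055 CPM, and that of the neural list, 10781 ± 1169 CPM, differed by less than their spread. The lists have unequal numbers of genes and some of their genes share sequence, so the sums describe uniquely assigned reads and not numbers of cells. Of the copies of the main neuronal miRNA gene, Mir124a-2 was detected, with 52 reads in replicate 1 and 38 in replicate 2. Mir124a-1 and Mir124a-3 had at most 9 reads each. A read that matches more than 1 of these copies would be missing from their counts and from the neural sum. The number of such reads was not analysed here, so low counts of these copies are no measure of the amount of miR-124.

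Where Mir214 was higher, in replicate 1, the sums of several other lists were higher too. Such a lean was not particular to these lists. Of the 48 detected genes over 1.5-fold apart, 38 were higher in replicate 1 and 10 lower, and with TMM 32 were higher and 10 lower. The striated muscle genes summed to 882.1 CPM in replicate 1 and 519.6 in replicate 2, led by Mir206 (640.4 ± 241.3 CPM), Mir208b (37.9 ± 13.9), Mir133b (11.7 ± 3.46) and Mir208a (10.7 ± 2.46). Of the 7 counted genes of this list 4 were detected, and Mir133a-1 and Mir133a-2 had 0 reads. A read that matches more than 1 gene would be missing from these counts and from the muscle sum. The number of such reads was not analysed here, so the 0 reads are no measure of the amount of the mature strand. The neural sum was higher in replicate 1 by a log2 ratio of 0.22, which rested on Mir219a-2. Without that gene, an alternative chosen after the values were seen, the other 13 neural genes summed to 5017 CPM in replicate 1 and 5456 in replicate 2, a log2 ratio of -0.12. The endothelial gene Mir126a had 20304 CPM in replicate 1 and 18258 in replicate 2. The sum of the mesenchyme list had a log2 ratio of 0.01, while its genes lay on both sides, with Mir483 at 0.69, Mir22 at 0.38 and Mir455 at 0.33, against Mir21a at -0.29 and Mir675 at -0.34. The part of these tissues in the difference of Mir214 was not tested.

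The remaining lists were low beside the members. The 7 epithelial genes, all detected, summed to 2194 CPM in replicate 1 and 2254 in replicate 2, led by Mir203 (1100 ± 137.6 CPM), Mir205 (481.6 ± 15.7), Mir429 (352.9 ± 56.9) and Mir200c (132.2 ± 22.7). The 3 counted leukocyte genes, all detected, summed to 349.0 and 302.5 CPM with Mir223 at 186.0 ± 22.3, Mir155 at 123.2 ± 11.2 and Mir150 at 16.5 ± 0.653. Mir142 of the leukocyte list matched no symbol and is not in this sum. The 3 erythroid genes, also all detected, summed to 111.8 and 101.7 CPM with Mir451a at 72.7 ± 5.58, Mir144 at 17.3 ± 3.62 and Mir486 at 16.8 ± 5.16. Mir214 alone was thus above the sum of the counted genes of each of these 3 lists in both libraries.

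**Figure D4:**
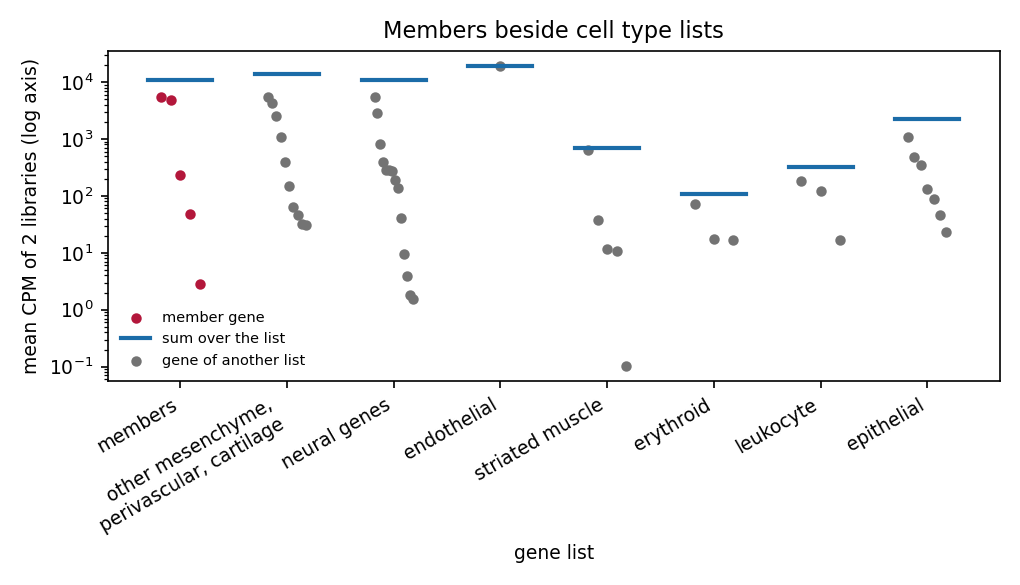
Mean CPM over the 2 libraries on a log axis for each member (red) and each gene of 7 cell type lists (grey), with the sum of each list as a blue line. Genes at 0 are not drawn, and the members' sum of 10717 CPM lies beside those of the neural list and of the other mesenchyme genes.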

How the data were processed

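Small RNA sequencing gave 2 libraries of 1 group. The files deposited by the authors hold raw read counts for each miRNA gene in 3 columns (both strands, then each strand) without normalization. Per the descriptions deposited with them, the counts were made on mm10 with annotation M4 from each library's own alignment. Which aligner and counter made them is not given in the sources used here. Reads on a gene's own strand, taken as the larger strand column, were used. The 4 rows that name no gene were left out of totals; they held 62.3% of reads in replicate 1 and 53.1% in replicate 2.

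Of 1973 gene identifiers, 1894 matched GENCODE M21, and the hairpin coordinates of 5 of 5 members were the same in RefSeq's table, from which sequences were taken. A count of 0 allows 0.625 and 0.678 CPM. Intervals are exact (Clopper-Pearson, 95%), those of a ratio from the binomial given both counts. Errors are the SD over replicates. No test was run. Alternative scalings used edgeR 4.0.16 and DESeq2 1.42.0 (R 4.3.3); other steps used Python 3.11.15, numpy 2.4.6, pandas 2.3.3, scipy 1.17.1 and matplotlib 3.10.9. The ratio steps were tested on simulated data.

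Members and lists were chosen with earlier results of these data known. Named besides the members are the 3 nearest detected genes of each, genes that share a seed, and up to 4 genes of each list. Mir455, Mir675, Mir145b, the Mir124a and the Mir133a genes were named after their values were seen. The list entries Mir497a, Mir9-1, Mir1a-2 and Mir142 matched no symbol and are in no sum.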

Additional observations from a re-analysis of the deposited data

How the results depend on the processing

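Over 17 results, 69 values were recomputed under other settings, and 57 moved by less than their spread, counting interval or 1.5 times for counts. The 57 include levels, shares and read ratios taken without 1 replicate. With 2 libraries each of these lies within the SD by construction, so they say nothing of stability. With reads that map to several places in the denominator, levels became 3315 CPM for Mir214, 2947 for Mir140, 139.3 for Mir199b and 29.4 for Mir199a-2, and the members' share 0.643%, which follows from the larger denominator. Counting both strands gave 4822 CPM for Mir140. The log2 ratio of replicate 1 over replicate 2 became 0.327 with TMM and 0.323 with DESeq2 size factors for Mir214, and -0.00986 and -0.0139 for Mir140, whose direction was therefore not settled. Genes over 1.5-fold apart numbered 174 of 606 (28.7%) with at least 1 read in both libraries and 24 of 269 (8.92%) with at least 100. The main setting gave 48 of 371 (12.9%), so the share fell as the minimum rose. Such genes numbered 42 with TMM and 41 with DESeq2 size factors. Without replicate 1, Mir199a-1 also reached 10 reads, making 5 members detected, and the Mir214 to Mir140 ratio was 0.997. The Mir214 to Mir199a-2 ratio was 85.9 without replicate 1 and 152.7 without replicate 2. Depth limits Mir199a-1 above all, with 8 and 18 reads. No paired analysis was possible because there is only 1 group.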
